A study of Mus musculus with 14 samples.

Results

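Cytochrome P450 genes of families 1 to 4 were followed in liver and spontaneous liver tumours of aged mice. A gene was taken as a member when its symbol begins with Cyp, then 1 digit from 1 to 4, a lower-case letter and a number, with pseudogenes marked -ps left out. The rule found 80 genes among 21431 named genes: 3 of family 1, 48 of family 2, 9 of family 3 and 20 of family 4, in 21 subfamilies. Of the 80, 53 had enough counts to be tested and 27 did not. Cyp2d13 is annotated as a transcribed pseudogene but carries no -ps in its symbol, so it was kept.

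These enzymes are haem proteins of the endoplasmic reticulum that insert an oxygen atom into lipophilic molecules, using electrons passed on by P450 oxidoreductase. Families 1 to 3 carry most of the liver's drug and toxicant metabolism and also hydroxylate steroids and bile acids, while family 4 hydroxylates the far end of fatty acids. In mouse liver many members are zoned along the lobule, most around the central vein, and several differ between males and females through the pattern of growth hormone release.

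All 14 samples came from male C3HeB/FeJ mice, a strain whose males are prone to liver tumours, 18 months old at collection and with no engineered allele named in the labels. Mice were checked for tumours at 10 months and then injected into the abdomen on 5 days of each 28-day cycle, over 6 cycles. The 4 normal livers (Normal 1 to 4) had received phosphate citrate buffer. Of 6 tumours labelled Grow, Grow 1 and Grow 5 had received DMSO, Grow 6 the histone deacetylase inhibitor SAHA (suberoylanilide hydroxamic acid) at 100 mg/kg, and Grow 2, Grow 3 and Grow 4 SAHA at 85 mg/kg together with the DNA-alkylating drug TMZ (temozolomide) at 22 mg/kg. Of 4 tumours labelled Regress, Regress 1 and Regress 3 had received TMZ at 31 mg/kg, Regress 2 the buffer and Regress 4 DMSO. The labels do not say how Grow and Regress were scored, and injection and tissue cannot be told apart, since 9 of 10 tumours received something other than the buffer given to the normal livers. The code of Normal 4 is also that of Regress 2, and no label states that the other samples are from separate animals, so a p-value here measures only how these samples spread.

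Libraries held 4707063 to 13394301 estimated counts. All 10 hepatocyte markers passed the count filter, while the kidney markers Umod, Slc34a1 and Kap were at 0 and the lung club cell marker with a row was at most 0.258 CPM (counts per 1000000 of the TMM-scaled library, the unit used throughout). The summed stellate cell and fibroblast markers stood at 1160 CPM in Regress 4 against at most 361 in every other library, and the summed bile duct markers at 613 CPM in Grow 1 and 509 in Regress 4 against 19.2 to 27.7 in normal liver. Their part in the results was not tested. In these bulk samples, fewer hepatocytes and less P450 RNA per hepatocyte cannot be told apart. Of all pairs of libraries, Grow 3 and Grow 4 were closer to each other than any other pair of libraries (r = 0.979 of log2 CPM across genes against at most 0.951), but differed beyond sampling noise and were kept as 2 samples. Normal 2 stood apart in sex-biased genes, described with the Cyp2c subfamily below. Regress 1 was closer to most normal livers than to any tumour over all genes. Its r was 0.941, 0.926 and 0.917 with Normal 2, Normal 1 and Normal 4, 0.814 with Normal 3, and at most 0.876 with a tumour. Afp, chosen after its values were seen, was 0.591 CPM in Regress 1, 0.299 to 4.51 in normal liver and at least 23.2 in every other tumour. What sets Regress 1 apart was not tested. Values without these libraries stand beside the results that they moved most.

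The 80 members together took up 2.26% ± 0.585 of all counts in normal liver (SD, n = 4), 1.47% ± 0.908 in Grow tumours (SD, n = 6) and 1.50% ± 0.553 in Regress tumours (SD, n = 4). Single libraries ran from 1.70% to 3.05% in normal liver, from 0.694% to 2.67% in Grow tumours and from 0.684% to 1.90% in Regress tumours, so the groups overlapped. The high Grow values, 2.61% and 2.67%, were those of Grow 3 and Grow 4, while the other 4 Grow tumours had 0.694% to 1.01%. Which gene led the P450 RNA also differed by library. Cyp2e1 made up 16.8% to 27.5% of it in normal liver and 34.2% in Grow 3 and in Grow 4, but 0.603% in Grow 1, where Cyp2a4 made up 45.9%. Cyp3a11 made up 42.6% and 46.2% in Regress 1 and Regress 3, and 3.50% in Grow 1.

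**Figure D1:**
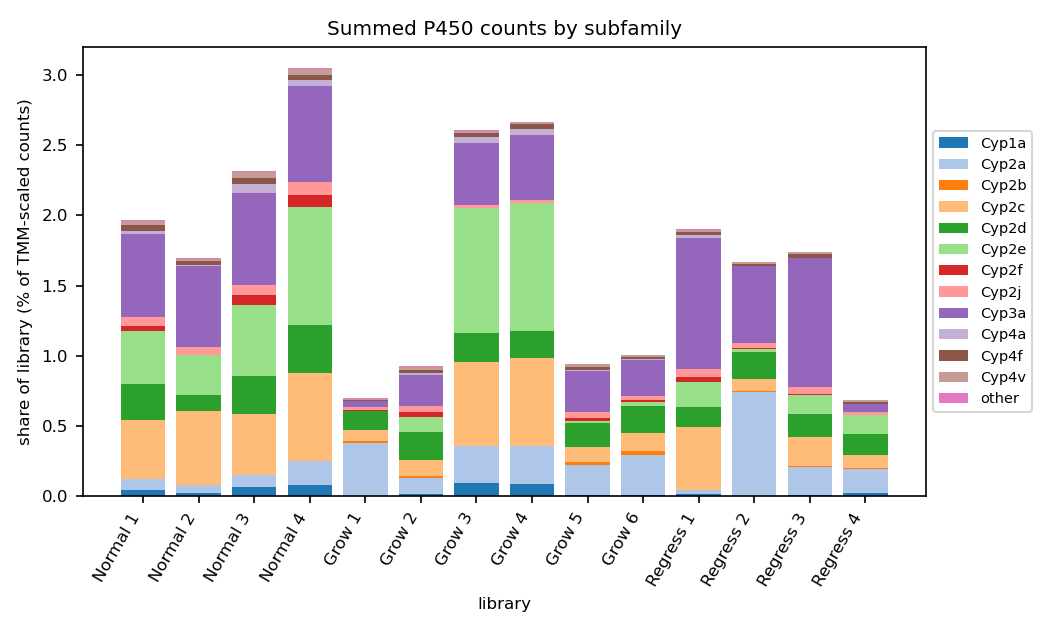
Summed counts of the P450 members by subfamily in each of the 14 libraries, as a percentage of TMM-scaled counts; each bar is 1 library and each colour 1 subfamily. The bars of Grow 3 and Grow 4 reach 2.61% and 2.67%, those of Grow 1 and Regress 4 stop at 0.694% and 0.684%.

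Expression ranged widely among members. The highest value in any library passed 1000 CPM for 10 members and 100 CPM for 32, stayed under 1 CPM for 16, and 6 members had no count in any library. Per kilobase of transcript, the scale on which genes can be compared, the members with the highest level in normal liver were Cyp2e1 (ethanol and paracetamol oxidation) at 2736 ± 1325 CPM per kb, Cyp3a11 (the main mouse form of the drug-metabolizing Cyp3a subfamily) at 2056 ± 269, Cyp2c70 (which makes the rodent muricholic bile acids) at 802 ± 262 and Cyp3a25 at 638 ± 27.2 (SD, n = 4). In Grow tumours the same genes had 1780.4 ± 2443, 1021 ± 661, 408 ± 168 and 199.7 ± 98.2 CPM per kb (SD, n = 6). The SD of Cyp2e1 in Grow tumours exceeded its mean. Grow 3 or Grow 4 held the highest value of 13 of the 53 tested members, where those libraries held the highest value of 8.08% of all tested features. Grow 1 held the lowest value, ties included, of 20 of the 53, against 5.68% of all features.

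**Figure D2:**
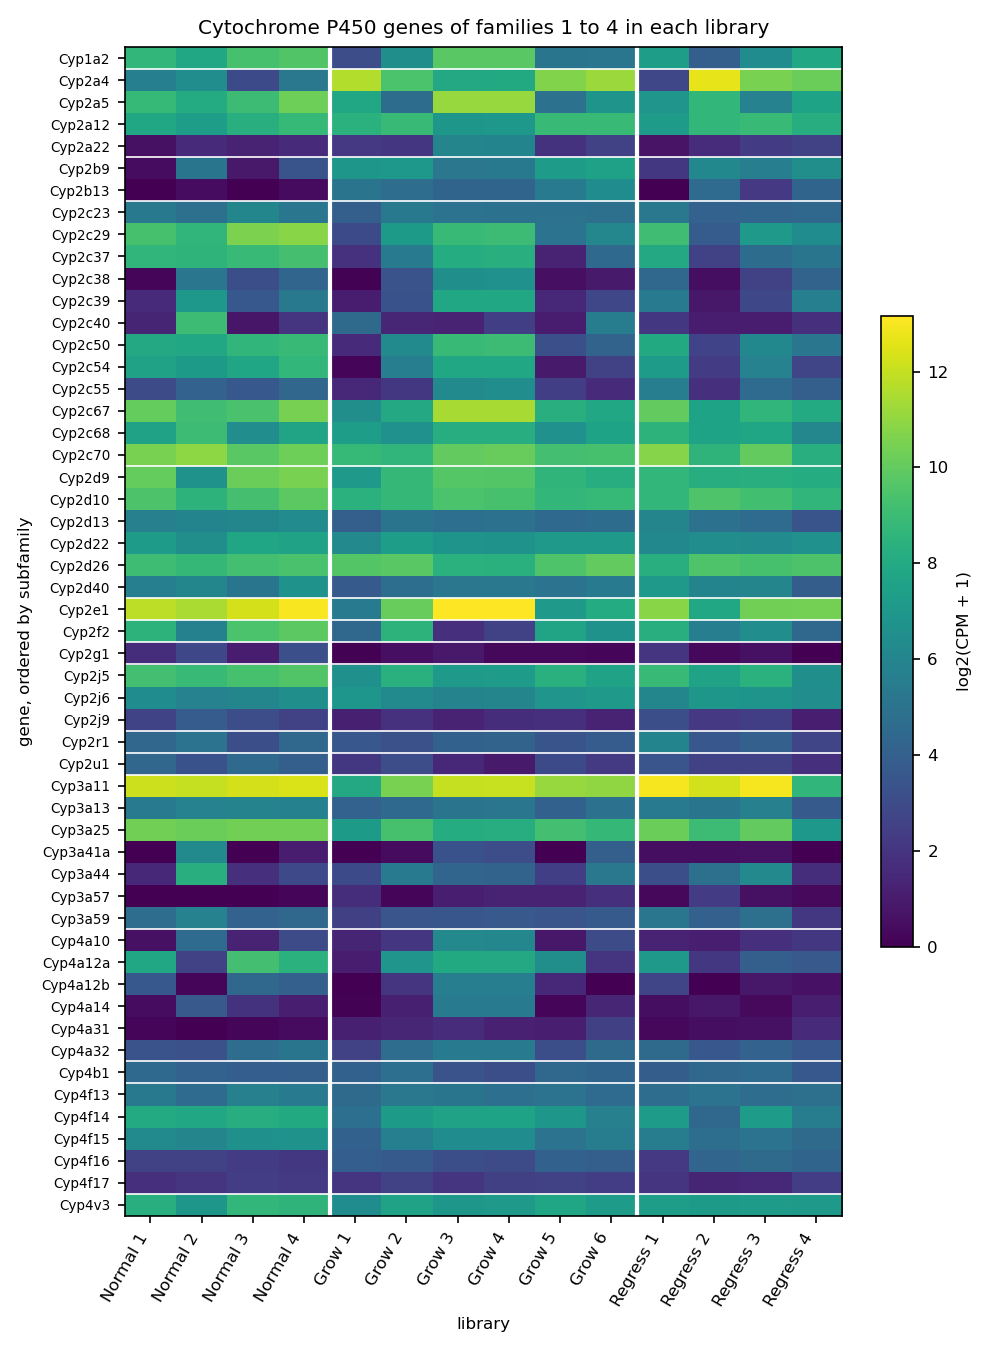
Level of each of the 53 tested P450 members (rows, ordered by subfamily) in each of the 14 libraries (columns, split into Normal, Grow and Regress), as log2(CPM + 1) by colour. Grow 3 and Grow 4 are bright for Cyp2a5, Cyp2c67 and Cyp2e1 and dark for Cyp2f2, and Normal 2 alone of the normal livers is bright for Cyp2c40, Cyp3a41a and Cyp3a44.

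In tumours against normal liver, with the effects in Grow and in Regress tumours averaged, 2 of the 53 tested members passed an adjusted p under 0.05 with edgeR's quasi-likelihood test, both higher: Cyp2b13 and Cyp4f16. The same test called 2.32% of all 12300 tested features. At an unadjusted p under 0.05 there were 26 of the 53 members and 18.0% of all features. The median log2 fold change of the members was -0.66, and that of all tested features 0.01. In Grow tumours alone 3 members were called, Cyp2b13 and Cyp4a31 higher and Cyp2j9 lower, with 1.76% of all features called, and the members' median was -0.62 against 0.00 for all features. In Regress tumours against normal liver edgeR called 0 members and 0.0244% of all features, although 17 members had an unadjusted p under 0.05 (16.2% of all features) and their median was -0.87 against 0.03.

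**Figure D3:**
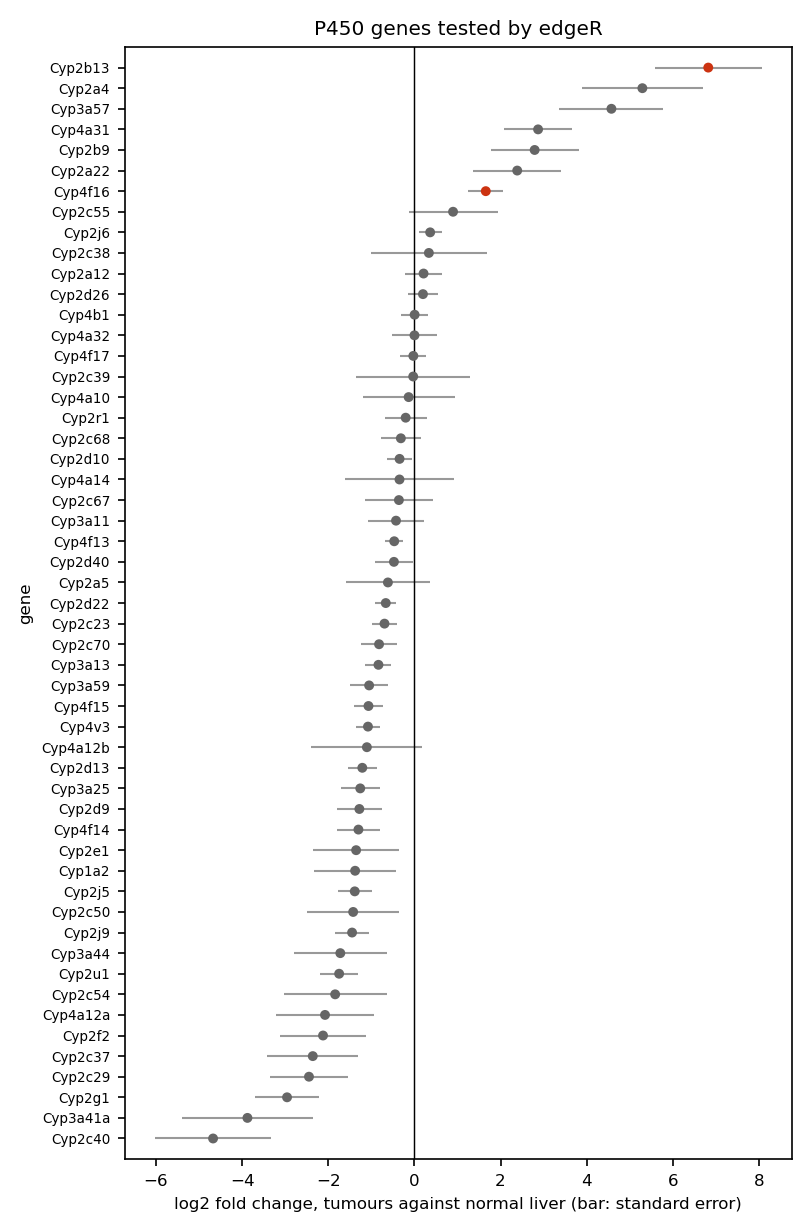
Log2 fold change of each tested P450 member in tumours against normal liver from edgeR's quasi-likelihood fit, with bars of 1 standard error; red points are members with adjusted p under 0.05. Cyp2b13 lies highest at 6.82 and Cyp2c40 lowest at -4.68, and most members lie below 0.

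The number of calls depended on the tool and on single libraries. DESeq2 called 12, 16 and 5 members in the tumour, Grow and Regress comparisons (8.58%, 8.24% and 5.79% of all features), and limma-voom called 1, 1 and 0 (1.03%, 0.756% and 0%), the called member being Cyp2u1, lower. Left out singly, Normal 1, Normal 3 or Normal 4 took the tumour count of members to 0 (0.0634%, 0% and 0.111% of all features), Regress 1 took it to 11 (7.84%), and the other 10 libraries gave 1 to 3 (0.459% to 2.69%). Members in the Grow comparison numbered 0 without any 1 of the normal livers (0.0317% to 0.19% of features), 10 without Regress 1 (4.69%), 11 without Regress 4 (5.2%), and 1 to 4 otherwise (0.204% to 1.89%). The Regress count was 6 without Regress 1 (5.28%) and 0 without any other library (at most 0.104%). Without Grow 3 and Grow 4 together the counts were 10, 5 and 1 (4.73%, 3.93% and 1.04% of features), and without Normal 2 and Regress 1 together they were 9, 7 and 6 (4.99%, 2.26% and 3.36%). Without Normal 4 and Regress 2, the libraries that share a code, they were 0, 0 and 0 (0%, 0.143% and 0%).

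Groups that do not overlap gave a further view, free of any model. Every tumour was above every normal liver for 1 tested member, Cyp3a57, and below for 3, Cyp2c37, Cyp3a25 and Cyp4f14. Over all tested features the shares were 1.09% and 0.935%. For Cyp3a57 the lowest tumours and the highest normal liver held 1 count each, so that separation rests on library scaling. Every Grow tumour was above every normal liver for 7 members (5.27% of features) and below for 10 (4.28%). Every Regress tumour was above every normal liver for 1 member (2.72% of features) and below for 6 (3.20%): Cyp1a2, Cyp2c37, Cyp2e1, Cyp3a25, Cyp4f14 and Cyp4f15.

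The Cyp2b subfamily holds Cyp2b13, the tested member with the largest fold change in tumours. Its members Cyp2b9 and Cyp2b13 are steroid hydroxylases that predominate in the livers of female mice, and Cyp2b10 is the classical target of the drug receptor CAR. The 250 bases before the start of Cyp2b13 (chr7:26061245-26061494, + strand, GRCm38.p6) and Cyp2b9 (chr7:26173159-26173408, + strand) are shown because these neighbouring genes are nearly identical over this stretch. Capitals mark the 2 bases in which they differ, and 99.2% of bases were the same. These and the later upstream sequences were taken from RefSeq.
Cyp2b13: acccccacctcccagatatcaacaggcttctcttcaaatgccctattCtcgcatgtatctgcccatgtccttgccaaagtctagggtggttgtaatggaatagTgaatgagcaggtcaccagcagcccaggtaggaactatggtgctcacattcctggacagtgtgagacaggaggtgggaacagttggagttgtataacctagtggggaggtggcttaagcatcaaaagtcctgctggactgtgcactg
Cyp2b9: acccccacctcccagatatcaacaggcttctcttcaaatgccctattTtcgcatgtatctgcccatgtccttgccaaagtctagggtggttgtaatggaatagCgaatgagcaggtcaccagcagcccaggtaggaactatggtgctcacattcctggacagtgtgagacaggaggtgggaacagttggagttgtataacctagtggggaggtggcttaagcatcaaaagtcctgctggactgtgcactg

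Cyp2b13 was at 0, 0.350, 0 and 0.291 CPM in Normal 1 to 4, with 4 counts in all. It ranged from 17.7 to 82.3 CPM (median 28.8) in Grow tumours and was 0, 23.1, 3.61 and 18.1 CPM in Regress 1 to 4. Every Grow tumour lay above every normal liver, and Regress 1, with no count, lay within the normal range. The log2 fold change was 6.82 ± 1.24 SE in tumours (adjusted p = 0.0221), 7.66 ± 1.28 SE in Grow tumours (adjusted p = 0.0183) and 5.99 ± 1.29 SE in Regress tumours, which did not pass (adjusted p = 0.0569). Without any 1 of the normal livers the tumour call was lost, with fold changes of 6.42 to 7.38 and adjusted p of 0.0517 to 0.114, and so was the Grow call (adjusted p of 0.0551 to 0.0754).

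Cyp2b9 was also low in most normal livers and high in tumours, except that Normal 2 stood near the lowest Grow tumours. It was 0.351, 33.5, 0.897 and 9.60 CPM in Normal 1 to 4, ranged from 36.6 to 182 CPM (median 127) in Grow tumours and was 3.35, 70.8, 48.9 and 88.3 CPM in Regress 1 to 4. Every Grow tumour exceeded every normal liver, Grow 3 and Grow 4 by little, yet the fold change of 2.79 ± 1.02 SE did not pass (adjusted p = 0.155). Without Normal 2 and Regress 1 it was 4.57 with adjusted p = 0.0222. Cyp2b10 was not among the tested members: it stood at 9.75 CPM in Normal 4 and 9.27 in Regress 3 and at most 1.97 elsewhere. Cyp2b19 and Cyp2b23 had no count in any library. The transcripts of Cyp2b13 and Cyp2b9 are 91.9% identical, and 20.0% of 50-base windows of Cyp2b13 occur in another P450 transcript, so part of their counts may be divided between copies. The subfamily sum, which does not depend on that division, was 0.527, 34.0, 1.05 and 19.6 CPM in Normal 1 to 4, ranged from 55.2 to 265 CPM (median 156) in Grow tumours and was 5.32, 93.9, 61.8 and 106 CPM in Regress 1 to 4, with a log2 fold change in tumours of 2.85 ± 0.99 SE.

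**Figure D4:**
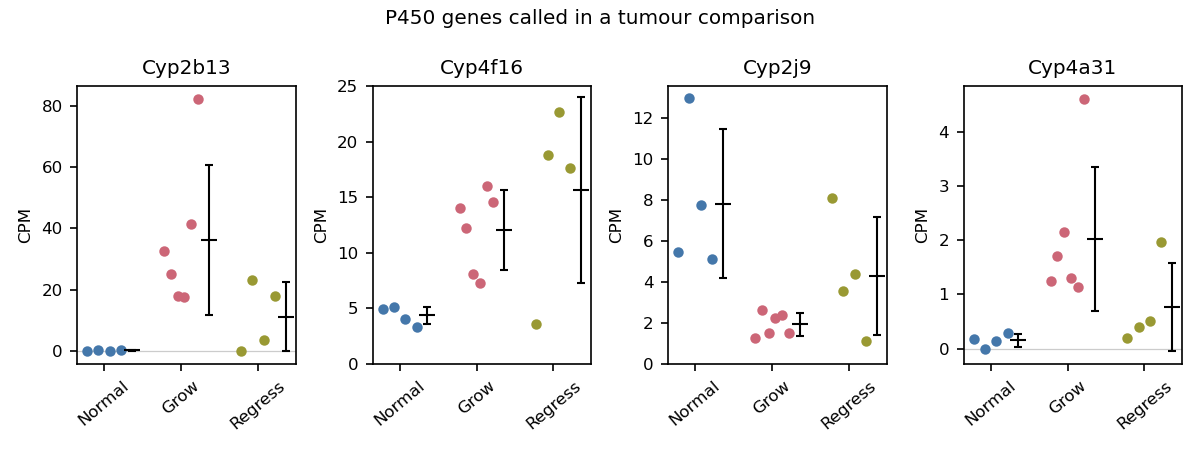
CPM in each library for the 4 P450 members called in a tumour comparison by edgeR's quasi-likelihood test; points are libraries, and the horizontal mark and bar beside them are the mean and 1 SD. Regress 1 lies at or near the normal livers for Cyp2b13, Cyp4f16 and Cyp4a31, and Grow 6 holds the highest value of Cyp2b13 and Cyp4a31.

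In the Cyp2a subfamily the ratio of a pair of near-copies differed between libraries. Cyp2a5 is the mouse coumarin hydroxylase and Cyp2a4 a testosterone hydroxylase. The 250 bases before the start of Cyp2a4 (chr7:26306942-26307191, + strand, GRCm38.p6) and Cyp2a5 (chr7:26835089-26835338, + strand) are shown to let the pair be compared; 98.4% of 249 aligned bases were the same, and capitals mark bases that differ or that lie beyond the 1-base shift between them.
Cyp2a4: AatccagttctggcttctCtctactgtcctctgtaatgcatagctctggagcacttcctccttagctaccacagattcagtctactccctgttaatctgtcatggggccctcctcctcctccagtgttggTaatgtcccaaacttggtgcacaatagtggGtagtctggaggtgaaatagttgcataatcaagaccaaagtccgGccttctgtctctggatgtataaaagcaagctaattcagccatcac
Cyp2a5: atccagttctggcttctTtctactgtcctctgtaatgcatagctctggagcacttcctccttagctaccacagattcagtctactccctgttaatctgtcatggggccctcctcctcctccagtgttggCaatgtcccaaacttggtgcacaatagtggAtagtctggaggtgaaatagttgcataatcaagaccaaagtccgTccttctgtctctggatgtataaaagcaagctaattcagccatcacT

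Cyp2a4 was at 50.0, 88.0, 6.72 and 37.1 CPM in Normal 1 to 4, ranged from 245 to 3185 CPM (median 1161) in Grow tumours and was 5.91, 6543, 1457 and 1168 CPM in Regress 1 to 4. All tumours but Regress 1 exceeded every normal liver. The log2 fold change was 5.29 ± 1.41 SE in tumours (adjusted p = 0.0623), 4.93 ± 1.41 SE in Grow tumours and 5.66 ± 1.49 SE in Regress tumours, none of which passed. With DESeq2 the tumour value was 5.29 (adjusted p = 2.32e-06), without Normal 2 and Regress 1 it was 6.04 (adjusted p = 0.0211), and without Grow 3 and Grow 4 it was 5.58 (adjusted p = 0.0414).

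Cyp2a5 was instead highest in Grow 3 and Grow 4. It was 451, 272, 516 and 1201 CPM in Normal 1 to 4, ranged from 24.0 to 2207 CPM (median 174) in Grow tumours and was 115, 420.3, 56.4 and 198 CPM in Regress 1 to 4. Grow 2, Grow 5 and Regress 3 held the lowest levels, below every normal liver, as did Grow 1, Grow 6, Regress 1 and Regress 4. Of the counts of both genes, Cyp2a4 made up 1.29% to 24.4% in normal liver, 93.1% to 98.2% in Grow 1, Grow 2, Grow 5 and Grow 6, and 94.0%, 96.3% and 85.5% in Regress 2, Regress 3 and Regress 4. It made up 10.0% in Grow 3, 10.4% in Grow 4 and 4.87% in Regress 1, within the normal range. The transcripts are 98.3% identical, and 38.0% of the 50-base windows of Cyp2a4 and 40.8% of those of Cyp2a5 occur in another P450 transcript, which leaves most windows specific to 1 of the genes.

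**Figure D5:**
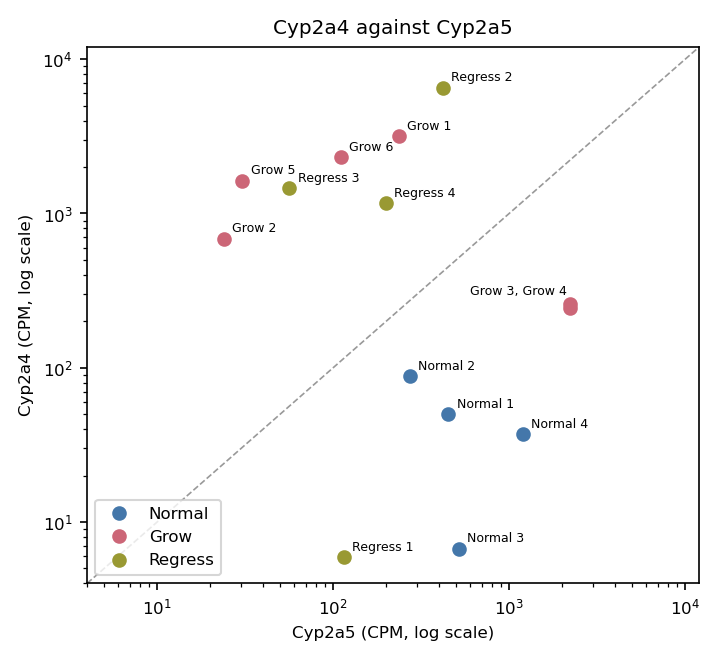
Cyp2a4 against Cyp2a5 in each of the 14 libraries, both in CPM on log axes; each point is 1 library, coloured by group, and the dashed line marks equal levels. The 4 normal livers, Grow 3, Grow 4 and Regress 1 lie below the line and the other 7 tumours above it.

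Of the remaining Cyp2a members, Cyp2a12, a steroid hydroxylase, ranged from 160.0 to 447 CPM in normal liver and from 125 to 488 CPM (median 397) in Grow tumours, with a log2 fold change in tumours of 0.21 ± 0.43 SE (adjusted p = 0.896). Its close relative Cyp2a22 was 0.527, 2.10, 1.49 and 2.04 CPM in Normal 1 to 4 and 62.4 and 59.3 CPM in Grow 3 and Grow 4, against at most 4.98 in the other tumours. Its fold change in Grow tumours, 3.86 ± 1.11 SE, did not pass (adjusted p = 0.0792), and was 1.23 without Grow 3 and Grow 4 (adjusted p = 0.256).

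Cyp2e1 and Cyp1a2, textbook markers of hepatocytes around the central vein, split the tumours into very high and low libraries. Cyp2e1 was 3747, 2857, 5059.5 and 8397 CPM in Normal 1 to 4, ranged from 41.8 to 9137 CPM (median 677) in Grow tumours and was 1818, 227, 1324 and 1354 CPM in Regress 1 to 4. Grow 3 and Grow 4, at 8912 and 9137 CPM, were above every normal liver, and the other 8 tumours were below every one. The log2 fold changes were -1.35 ± 1.00 SE in tumours (adjusted p = 0.572), -0.62 ± 1.13 SE in Grow and -2.09 ± 1.30 SE in Regress tumours. Without Grow 3 and Grow 4 the tumour value was -2.86 and passed (adjusted p = 0.0373).

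Cyp1a2, which oxidizes caffeine and aromatic amines and is a target of the Ah receptor, split in the same libraries. It was 423, 231, 637 and 759 CPM in Normal 1 to 4, ranged from 7.77 to 886 CPM (median 64.0) in Grow tumours and was 161, 14.8, 83.4 and 227 CPM in Regress 1 to 4. Both Grow 3 and Grow 4 (886 and 870.1 CPM) were above, and all other tumours below, every normal liver. The log2 fold change was -1.38 ± 0.94 SE in tumours (adjusted p = 0.525), and -2.81 without Grow 3 and Grow 4 (adjusted p = 0.0286). Its paralogue Cyp1a1, the most inducible Ah receptor target, was at most 2.98 CPM in any library, and Cyp1b1 reached 3.81 CPM in Regress 4, where fibroblast markers were also highest.

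All 16 listed pericentral genes outside the P450 families were higher in both Grow 3 and Grow 4 than in every normal liver, as were 17.7% of all tested features. Glul, the glutamine synthetase of the innermost hepatocyte layer, was 292, 225, 375 and 583 CPM in Normal 1 to 4, 9962 and 9771 in Grow 3 and Grow 4, 1519 in Regress 4, and 22.7 to 238 in the other tumours (log2 fold change 1.78 ± 1.53 SE, adjusted p = 0.650). Of these 16 genes edgeR called 0 in tumours, with 1 at an unadjusted p under 0.05, DESeq2 called 1 and limma-voom 0, and their median log2 fold change was 0.51 in tumours and 1.29 in Grow tumours. Their part in the P450 values was not tested. Cyp2f2, which bioactivates naphthalene and marks hepatocytes near the portal vein, went the other way in those libraries. It was 369, 54.7, 698 and 912 CPM in Normal 1 to 4, ranged from 2.52 to 365 CPM (median 62.1) in Grow tumours and was 311, 47.8, 87.6 and 21.0 CPM in Regress 1 to 4, with its lowest values, 2.52 and 4.83 CPM, in Grow 3 and Grow 4. The log2 fold change of -2.12 ± 0.99 SE did not pass (adjusted p = 0.279), and Normal 2, at 54.7 CPM, lay among the tumours. Of 14 other periportal genes edgeR called 1 in tumours, the urea cycle lyase Asl, which was lower (-1.43 ± 0.27 SE, adjusted p = 0.0238), with a list median of -0.59; DESeq2 called 3 and limma-voom 1.

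The Cyp2c subfamily, epoxygenases of arachidonic acid among other roles, has 15 members here, of which 12 were tested. None of the 12 was called by edgeR, DESeq2 or limma-voom in the tumour, Grow or Regress comparison with normal liver. The summed subfamily was 4227, 5255, 4366 and 6290.1 CPM in Normal 1 to 4, ranged from 753 to 6219 CPM (median 1199.8) in Grow tumours and was 4474, 827, 2029 and 907 CPM in Regress 1 to 4. The sums of Grow 3 and Grow 4 (5985 and 6219) and Regress 1 lay within the normal range, and the other 7 tumours below it. The log2 fold change of the sum in tumours was -1.08 ± 0.59 SE.

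Cyp2c29, a target of the receptor CAR, was 653, 411, 1534 and 1822 CPM in Normal 1 to 4, ranged from 6.81 to 518 CPM (median 105) in Grow tumours and was 549, 13.4, 139 and 82.8 CPM in Regress 1 to 4. Its log2 fold change in tumours, -2.45 ± 0.90 SE, did not pass (adjusted p = 0.157). Cyp2c37, which hydroxylates arachidonic acid, was 403, 378, 481 and 625 CPM in Normal 1 to 4, ranged from 1.48 to 306 CPM (median 32.8) in Grow tumours and was 243, 5.14, 23.9 and 33.9 CPM in Regress 1 to 4. Every tumour was below every normal liver; Grow 3, Grow 4 and Regress 1 came closest and Grow 1 and Grow 5 were lowest. The fold change of -2.36 ± 1.05 SE did not pass (adjusted p = 0.252). Without Grow 3 and Grow 4 both passed, at -3.29 (adjusted p = 0.0409) and -3.67 (adjusted p = 0.0395). Cyp2c50 and Cyp2c54 were also lowest in Grow 1, at 1.98 and 0.147 CPM, and stood at 469 and 227 CPM in Grow 3. For Cyp2c67 and Cyp2c55, Grow 3 and Grow 4 exceeded every normal liver. Cyp2c67 stood at 2762 and 2808 CPM there against 564 to 1388 in normal liver, and Cyp2c55 at 76.2 and 87.0 against 7.20 to 19.3.

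Cyp2c70 varied less between libraries than Cyp2c29 and Cyp2c37. It was 1450.2, 1952, 875 and 1232 CPM in Normal 1 to 4, ranged from 410.3 to 1088 CPM (median 617) in Grow tumours and was 1740.4, 379, 1039 and 318 CPM in Regress 1 to 4, with a log2 fold change in tumours of -0.82 ± 0.42 SE (adjusted p = 0.343). Cyp2c23 and Cyp2c68 had tumour fold changes of -0.69 and -0.31, and Cyp2c38 and Cyp2c39 of 0.34 and -0.03, the latter pair with their highest levels in Grow 3 and Grow 4.

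Some Cyp2c and Cyp3a members were far higher in Normal 2 than in any other library. Cyp2c40, a female-predominant form, was 1.58, 512, 0.747 and 2.91 CPM in Normal 1 to 4, ranged from 1.03 to 45.0 CPM (median 3.09) in Grow tumours and was 3.35, 0.988, 1.03 and 2.54 CPM in Regress 1 to 4. Cyp2c69 was 0, 333, 0 and 0.582 CPM in Normal 1 to 4 and at most 1.03 in any tumour, and did not pass the count filter. Fitted without that filter, edgeR called it lower in tumours (adjusted p = 0.0425), a call whose normal counts lie almost wholly in Normal 2. Cyp3a41a, another female-predominant form, was 0, 74.5, 0 and 1.02 CPM in Normal 1 to 4, and Cyp3a44 was 1.76, 305, 2.54 and 6.55. Of the 50-base transcript windows of Cyp2c40, Cyp2c69, Cyp3a41a and Cyp3a44, 72.1%, 54.8%, 98.6% and 26.5% occur in another P450 transcript. The transcripts of Cyp2c40 and Cyp2c69 are 97.8% identical. Part of their counts in Normal 2 may thus be divided between copies, and the values of single genes may not be independent. The 250 bases before the start are shown for Cyp2c40 (chr19:39812815-39813064, - strand, GRCm38.p6), Cyp2c69 (chr19:39886770-39887019, - strand) and Cyp3a41a (chr5:145720137-145720386, - strand). These 3 genes shared that pattern and carry the letters CAAAGTCCA, a site type of the liver factor HNF4A. Capitals mark the letters, 45, 75 and 95 bases before the start. The letters did not occur in the window of Cyp3a44, which shared the pattern too.
Cyp2c40: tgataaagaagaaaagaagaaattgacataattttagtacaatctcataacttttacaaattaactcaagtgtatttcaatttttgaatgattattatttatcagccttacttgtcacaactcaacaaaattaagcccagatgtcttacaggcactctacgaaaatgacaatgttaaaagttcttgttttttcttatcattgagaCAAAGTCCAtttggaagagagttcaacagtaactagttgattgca
Cyp2c69: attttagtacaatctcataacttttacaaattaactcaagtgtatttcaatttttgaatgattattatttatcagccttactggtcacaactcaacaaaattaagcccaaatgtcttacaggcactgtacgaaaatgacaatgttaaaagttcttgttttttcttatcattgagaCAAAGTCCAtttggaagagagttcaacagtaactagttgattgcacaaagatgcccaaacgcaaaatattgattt
Cyp3a41a: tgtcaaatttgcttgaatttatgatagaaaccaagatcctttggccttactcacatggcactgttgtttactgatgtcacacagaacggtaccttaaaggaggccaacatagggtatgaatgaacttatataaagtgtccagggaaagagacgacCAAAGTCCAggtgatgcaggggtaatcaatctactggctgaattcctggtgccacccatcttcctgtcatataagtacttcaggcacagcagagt

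These letters, searched on both strands, occurred in 0.384% of 32851 promoter windows of the same length. They also occurred in 10 of the 65 members with a window, all of the Cyp2c and Cyp3a subfamilies. Among the 10, Cyp2c68, Cyp2c70, Cyp3a16 and Cyp3a41b also had their highest values in Normal 2. Those of Cyp2c65, Cyp2c67 and Cyp3a11 were in other libraries. The matches are descriptions, not shown to be bound sites, and near-identical copies share them. A link between the letters and the pattern of Normal 2 was not tested. Other motifs were TATAAA (the TATA box) in 26 of the 65 members against 12.4% of windows, TTGCNNAA (C/EBP type) in 14 against 9.56%, GCGTG (core of the Ah receptor element) in 12 against 28.2% and TTCNNNGAA (STAT5 type) in 4 against 7.02%. For every motif a member counted when any of its windows matched, while the percentages are of single windows, so the units differ. Hnf4a itself was 415, 249, 589 and 475 CPM in Normal 1 to 4 and 222 to 468 CPM in tumours, with a log2 fold change of -0.27 ± 0.28 SE (adjusted p = 0.724).

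The fitted fold changes of Cyp2c40 (-4.68 ± 1.35 SE, adjusted p = 0.0761) and Cyp3a41a (-3.88 ± 1.52 SE, adjusted p = 0.183) turned to 1.51 and 1.81 without that library, and neither passed either way. Normal 2 was also the lowest normal liver for the male-predominant members Cyp2d9 (105 CPM against 1075 to 1468) and Cyp4a12a (5.08 against 238 to 605). Outside the P450 genes, chosen after their values were seen, the female-predominant A1bg stood at 398 CPM in Normal 2 against at most 0.291 in the other normal livers, and the male-predominant Hsd3b5 at 5.43 against 92.2 to 337. The Y-linked Ddx3y was at 52.2 to 86.0 CPM in all 14 libraries and Xist at most 1.06, so every library had counts from a Y-linked gene, as the label male states. Of 9 tested male-biased genes outside the P450 families edgeR called 0 in tumours (2 at an unadjusted p under 0.05, 1 by DESeq2, 0 by limma-voom). Their median was -1.27, with 2 above and 7 below 0. Of 5 female-biased genes edgeR called 1, Prom1, higher (4.86 ± 1.17 SE, adjusted p = 0.0444), DESeq2 called 4 and limma-voom 0. All 5 had an unadjusted p under 0.05, 3 above and 2 below 0, with a median of 4.86. Over all features edgeR called 2.32%, with 18.0% at an unadjusted p under 0.05.

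Cyp3a11, the main target of the drug receptor PXR, was 4509.7, 4103, 5164 and 5502 CPM in Normal 1 to 4, ranged from 243 to 4283 CPM (median 2138) in Grow tumours and was 8108, 4923, 8048 and 404 CPM in Regress 1 to 4. Regress 1 and Regress 3, the TMZ-treated Regress tumours, were above every normal liver, Grow 1 and Regress 4 were the lowest, and the log2 fold change of -0.43 ± 0.64 SE did not pass (adjusted p = 0.839). Cyp3a25 was steady in normal liver at 1296, 1193, 1307 and 1302 CPM, ranged from 144 to 648 CPM (median 365) in Grow tumours and was 1182, 518, 1020.0 and 129 CPM in Regress 1 to 4. Every tumour was below every normal liver, Regress 1 only just, and the fold changes of -1.26 ± 0.45 SE in tumours and -1.67 ± 0.51 SE in Grow tumours did not pass (adjusted p = 0.149 and 0.0954).

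Cyp3a13 was lower in every Grow tumour than in every normal liver (16.0 to 34.4 against 43.5 to 58.1 CPM), and Cyp3a59 likewise (4.54 to 12.2 against 16.4 to 55.7 CPM); neither passed in edgeR. Cyp3a57 was nearly silent in normal liver, with 1 count in 4 libraries, and had 105 counts in the 10 tumours, where it reached 3.95 CPM in Regress 2. The ratio of pooled library-scaled counts was 36.5, with an exact 95% interval of 6.41 to 1456 that covers counting error only. The lowest tumours, Grow 2 at 0.155 CPM and Regress 1 at 0.197 CPM, were hardly above Normal 4 at 0.145 CPM. Each of these values is 1 count, and the gene did not pass in edgeR (adjusted p = 0.0606). Cyp3a16 and Cyp3a41b were not tested, and Cyp3a41b had counts in Normal 2 only; its transcript is 99.9% identical to that of Cyp3a41a.

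The Cyp4a subfamily hydroxylates fatty acids, and Cyp4a10 and Cyp4a14 are standard targets of the fatty acid receptor PPARa. Cyp4a14 was 0.351, 11.7, 2.84 and 1.16 CPM in Normal 1 to 4, ranged from 0.0733 to 41.9 CPM (median 1.45) in Grow tumours and was 0.394, 0.791, 0.258 and 1.13 CPM in Regress 1 to 4. The libraries of Grow 3 and Grow 4 (40.9 and 41.9 CPM) stood above every other library, next came Normal 2, and all other tumours were at or below 1.66 CPM. Cyp4a10 was also highest in those libraries, with 73.0 and 66.4 CPM in Grow 3 and Grow 4, 23.3 in Normal 2 and at most 7.27 elsewhere. The tumour fold changes of -0.35 ± 1.26 SE and -0.13 ± 1.07 SE did not pass (adjusted p = 0.955 and 0.981), and they were 1.08 and 1.23 without Normal 2. Without Grow 3 and Grow 4 that of Cyp4a10 was -1.65 (adjusted p = 0.280), and Cyp4a14 no longer passed the count filter.

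Cyp4a31 passed in Grow tumours at low counts, 4 in the normal livers and 91 in the Grow tumours. It was 0.176, 0, 0.149 and 0.291 CPM in Normal 1 to 4, ranged from 1.14 to 4.61 CPM (median 1.50) in Grow tumours and was 0.197, 0.395, 0.515 and 1.98 CPM in Regress 1 to 4. Every Grow tumour was above every normal liver, and Regress 1 was within the normal range. The log2 fold change was 3.51 ± 0.80 SE in Grow tumours (adjusted p = 0.0424) and 2.87 ± 0.78 SE in tumours as a whole (adjusted p = 0.0661). The Grow call was lost without any 1 of Normal 1 to 4, Grow 1, Grow 4, Grow 5 or Regress 3, with adjusted p of 0.0548 to 0.125. Without Grow 2, Grow 3 or Grow 6 the gene no longer passed the count filter, and 20.1% of its 50-base windows occur in other P450 transcripts.

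Cyp4a12a, a male-predominant form that makes 20-HETE from arachidonic acid, was 238, 5.08, 605 and 338 CPM in Normal 1 to 4, ranged from 1.10 to 255 CPM (median 103) in Grow tumours and was 137, 3.36, 14.7 and 11.9 CPM in Regress 1 to 4. Normal 2, Grow 1, Grow 6 and Regress 2 were all at or under 5.08 CPM, and the fold change of -2.08 ± 1.13 SE did not pass (adjusted p = 0.376). Its copy Cyp4a12b, 98.3% identical in transcript, was highest in Grow 3 and Grow 4 at 48.7 and 48.5 CPM against at most 20.0 in normal liver. Of 20 other PPARa targets edgeR called 5 in tumours, all higher: the pyruvate dehydrogenase kinase Pdk4 (2.97 ± 0.60 SE), the pantetheinase Vnn1 (4.78 ± 0.86 SE), the hormone Fgf21 (2.42 ± 0.53 SE) and the lipid droplet proteins Plin2 (1.90 ± 0.44 SE) and Cidec (4.25 ± 1.00 SE). DESeq2 called 6 and limma-voom 1. Over all features edgeR called 2.32% in tumours, and 11 of the 20 genes had fold changes below 0. In Grow and Regress tumours it called 3 and 0 of the 20 (1.76% and 0.0244% of features). The median of that list was -0.16, and Ppara itself had a fold change of -0.67 ± 0.34 SE (adjusted p = 0.337).

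In the Cyp4f subfamily, hydroxylases of leukotrienes and long fatty acids, edgeR called 1 member in tumours, which was higher. Cyp4f16 was 4.92, 5.08, 4.03 and 3.35 CPM in Normal 1 to 4, ranged from 7.31 to 16.0 CPM (median 13.1) in Grow tumours and was 3.55, 18.8, 22.7 and 17.6 CPM in Regress 1 to 4. All tumours but Regress 1 were above every normal liver. Its log2 fold change of 1.66 ± 0.40 SE passed in tumours (adjusted p = 0.0460); in Grow and Regress tumours separately the values were 1.47 ± 0.42 SE (adjusted p = 0.0792) and 1.85 ± 0.45 SE (adjusted p = 0.0738). The call was lost without any library but Grow 3, Grow 4 or Regress 1, with adjusted p up to 0.160. It was also lost in the fit without a count filter (adjusted p = 0.0557), with Grow 3 and Grow 4 summed (adjusted p = 0.0503), without Normal 4 and Regress 2 (adjusted p = 0.226) and with limma-voom (adjusted p = 0.149), and 25.8% of its 50-base windows occur in other P450 transcripts, mostly in Cyp4f37.

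Cyp4f14, which inactivates leukotriene B4, was 258, 226, 294 and 257 CPM in Normal 1 to 4, ranged from 27.3 to 197 CPM (median 133) in Grow tumours and was 146, 21.2, 146 and 46.8 CPM in Regress 1 to 4. Every tumour was below every normal liver, and the fold change of -1.30 ± 0.49 SE did not pass (adjusted p = 0.172). Cyp4f15 and Cyp4f13 had fold changes of -1.07 ± 0.34 SE and -0.47 ± 0.21 SE, and Cyp4f17 of -0.02 ± 0.30 SE; none passed with edgeR on all libraries. Cyp4f15 passed in Regress tumours with DESeq2 (-1.35, adjusted p = 0.0473), and in tumours with edgeR without Grow 3 and Grow 4 (-1.29, adjusted p = 0.0292). The subfamily sum had a tumour fold change of -1.02 ± 0.33 SE.

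Cyp4v3, a fatty acid hydroxylase, was 318, 126, 420.3 and 380.1 CPM in Normal 1 to 4, ranged from 84.7 to 209 CPM (median 139.9) in Grow tumours and was 159, 141, 153 and 137 CPM in Regress 1 to 4. The 4 Regress values lay close together, and Normal 2 lay among the tumours. Its fold change of -1.08 ± 0.29 SE did not pass with edgeR (adjusted p = 0.0621) and was among the 12 called by DESeq2. Without Normal 2 it was -1.34 and passed with edgeR (adjusted p = 0.0459). Cyp4b1, mostly a lung enzyme, stood at 14.0 to 21.8 CPM in normal liver and 7.90 to 26.9 in tumours, with a fold change of 0.01 ± 0.31 SE.

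The Cyp2j subfamily makes epoxides of arachidonic acid and held the only member that edgeR called lower on all libraries. Of all 53 tested members, DESeq2 called 6 lower and 6 higher in tumours (330 and 725 of 12300 features). In Grow tumours it called 9 lower and 7 higher (367 and 647 features). Cyp2j9 was 5.44, 13.0, 7.77 and 5.09 CPM in Normal 1 to 4, ranged from 1.25 to 2.63 CPM (median 1.88) in Grow tumours and was 8.08, 3.56, 4.38 and 1.13 CPM in Regress 1 to 4. Every Grow tumour was below every normal liver, Regress 1 was within the normal range, and Regress 2 to 4 were below it. It fell in Grow tumours (-2.02 ± 0.44 SE, adjusted p = 0.0384), and the value in all tumours was -1.45 ± 0.39 SE (adjusted p = 0.0643). That Grow call was lost without any library but Grow 2 or any 1 of the Regress tumours, with adjusted p up to 0.115.

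Cyp2j5, the most abundant of the subfamily, was 603, 469, 644 and 772 CPM in Normal 1 to 4, ranged from 95.7 to 331 CPM (median 167) in Grow tumours and was 489, 189, 338 and 92.0 CPM in Regress 1 to 4. Every Grow tumour was below every normal liver, and the fold change of -1.60 ± 0.44 SE there did not pass (adjusted p = 0.0735). Cyp2j6 had the opposite sign (0.37 ± 0.27 SE, adjusted p = 0.570). Cyp2u1, another fatty acid hydroxylase and the member called by limma-voom, was 19.1, 8.94, 21.7 and 14.5 CPM in Normal 1 to 4, ranged from 0.943 to 7.74 CPM (median 3.57) in Grow tumours and was 10.2, 4.74, 5.15 and 2.54 CPM in Regress 1 to 4. The Grow values lay below the normal range and the edgeR fold change in Grow tumours was -1.99 ± 0.50 SE (adjusted p = 0.0568). Cyp2g1, best known from olfactory mucosa, was 2.28, 6.13, 1.05 and 8.15 CPM in Normal 1 to 4, ranged from 0.0733 to 0.884 CPM (median 0.232) in Grow tumours and was 2.96, 0.198, 0.515 and 0 CPM in Regress 1 to 4, with a Grow fold change of -3.65 ± 0.89 SE that narrowly did not pass (adjusted p = 0.0504).

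Among the 9 Cyp2d members 6 were tested, and edgeR and limma-voom called none in tumours, while DESeq2 called Cyp2d13. Cyp2d26, the highest of them by mean CPM, was 543, 431, 604 and 655 CPM in Normal 1 to 4, ranged from 322 to 1019.9 CPM (median 768) in Grow tumours and was 319.7, 735, 642 and 705 CPM in Regress 1 to 4, with a fold change of 0.20 ± 0.34 SE in tumours (adjusted p = 0.870). Cyp2d10 had -0.34 ± 0.29 SE and Cyp2d22 -0.66 ± 0.25 SE. Cyp2d9, a male-predominant testosterone hydroxylase, had -1.28 ± 0.51 SE (adjusted p = 0.198), and all tumours lay between Normal 2 and the other normal livers. Without Normal 2 its value was -1.66 (adjusted p = 0.0739), and without Normal 2 and Regress 1 it was -1.72 and passed (adjusted p = 0.0396). Cyp2d13 had 52.0 to 81.2 CPM in normal liver and 15.0 to 32.5 in Grow tumours, with a fold change of -1.21 ± 0.33 SE in tumours (adjusted p = 0.0681). Cyp2r1, which starts the activation of vitamin D, was 8.07 to 31.2 CPM in normal liver, 8.67 to 17.0 in Grow tumours and 60.3 in Regress 1 against 5.78 to 15.2 in the other Regress tumours.

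Of the 27 members that were not tested, 21 had counts somewhere and 2 passed 10 CPM in a library: Cyp2c69 in Normal 2 and Cyp2c65, at 15.2 CPM, in Regress 3. Cyp2c66 also had its highest value, 5.15 CPM, in Regress 3, where the sum of 3 intestinal markers was highest too, at 664 CPM. That marker sum was 12.6 to 151 CPM in normal liver and 55.6 to 303 in Grow tumours, and its part in these values was not tested. Cyp2s1 reached 2.49 CPM in Grow 1 and 2.96 in Regress 4, and Cyp2t4 never passed 0.149 CPM. Cyp2w1 and Cyp4x1, along with Cyp2b19, Cyp2b23, Cyp2j12 and Cyp4a30b, had no count.

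Between Regress and Grow tumours no member passed. EdgeR called 0 of 53 members and 0% of features, with 5 members at an unadjusted p under 0.05 (10.0% of features), and DESeq2 and limma-voom called 0 members too (0.252% and 0% of features). No member had groups that did not overlap (0.374% of features higher and 0.545% lower). The furthest apart were Cyp4a14 (-4.36 ± 1.69 SE, adjusted p = 0.474), Cyp3a41a (-4.05) and Cyp4a10 (-3.55) on the lower side, all with their high Grow values in Grow 3 and Grow 4 or, for Cyp3a41a, also in Grow 6. Without Grow 3 and Grow 4 the value of Cyp4a10 was -0.48 (adjusted p = 0.782), and Cyp4a14 and Cyp3a41a did not pass the count filter. On the higher side were Cyp2g1 (1.38), Cyp3a11 (1.17), Cyp2j9 (1.15), Cyp2d40 (1.12) and Cyp3a59 (1.05). Without Regress 4 edgeR called 3 of 57 tested members, Cyp2d40, Cyp2j9 and Cyp3a59, beside 1249 of 12520 features (9.98%). Without any other library it called 0 members.

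TMZ was compared between the 5 tumours that received it, at 31 mg/kg alone or 22 mg/kg with SAHA, and the other 5, with the group as a covariate. EdgeR called 0 members and 0% of features, with 24 members at an unadjusted p under 0.05 (13.9% of features), and the members' median log2 fold change was 0.86 against -0.03 over all features. DESeq2 called 14 members (3.77% of features), 13 of them higher, and limma-voom 1, Cyp2c54 (0.0163%). Cyp2c54 ranged from 48.8 to 235 CPM (median 147) with TMZ and from 0.147 to 5.78 (median 3.95) without, and its fold change was 5.66 ± 0.85 SE (edgeR adjusted p = 0.0668). Cyp2c50 ranged from 69.0 to 511 CPM with TMZ and from 1.98 to 34.6 without (4.39 ± 0.84 SE, adjusted p = 0.0668). Every TMZ-treated tumour was above every other tumour for 5 members, Cyp2c29, Cyp2c50, Cyp2c54, Cyp2g1 and Cyp4f14 (0.780% of features), and below for 0 (0.967%). For Cyp2g1 the separation was at the counting floor, with a lowest value of 0.236 CPM with TMZ and a highest of 0.228 without. Grow 3 and Grow 4 are 2 of the 5 treated tumours: without both, edgeR called 0 members and the median of the members was 0.91. Without Grow 2 edgeR called 10 members and 737 features (6.01%), and without Regress 3 it called 3 members and 110 features (0.875%).

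SAHA was given to 4 of the 6 Grow tumours, 3 of them also with TMZ, so the agents cannot be told apart there. With edgeR there were 0 calls among members and 0% of features, with 17 members at an unadjusted p under 0.05 (2.64% of features); DESeq2 called 12 members, all higher (0.423% of features), and limma-voom 0 (0%). Every SAHA-treated tumour was above both DMSO-treated ones for 18 members (5.85% of features) and below for 0 (5.57%). Cyp2e1 was 271 to 9137 CPM with SAHA and 41.8 and 135 without, and Cyp1a2 35.0 to 886 and 7.77 and 33.5. Without Grow 3 and Grow 4, 6 members and 100 of 12060 features had an unadjusted p under 0.05 and the members' median was 0.52 in place of 0.74.

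For the partners and regulators of these enzymes, edgeR calls stand beside 2.32% of all features called in tumours and 1.76% in Grow tumours. At an unadjusted p under 0.05 the shares of all features were 18.0% and 16.6%. Of 19 genes for electron supply and haem synthesis edgeR called 0 in tumours, with 2 at an unadjusted p under 0.05, DESeq2 called 1 and limma-voom 0. The list had a median log2 fold change of -0.25 in tumours and 14 of the 19 below 0. Por, the oxidoreductase that feeds every member, had -1.28 ± 0.44 SE in tumours (adjusted p = 0.125), and was 145, 191, 371 and 400.2 CPM in Normal 1 to 4 and 291 and 279.8 CPM in Grow 3 and Grow 4 against 51.5 to 119 in the other tumours. Alas1, the rate-limiting enzyme of haem synthesis, had -1.80 ± 0.53 SE (adjusted p = 0.0806). Of 32 tested receptors and factors edgeR called 1 in tumours (DESeq2 3, limma-voom 1), with 11 at an unadjusted p under 0.05. The called gene was the circadian PAR bZIP factor Hlf, which was lower (-1.56 ± 0.24 SE, adjusted p = 0.0168). In Grow tumours edgeR called Hlf and the bile acid receptor Nr1h4 (DESeq2 called 5, limma-voom 1), with 8 at an unadjusted p under 0.05. There Nr1h4 was lower (-1.25 ± 0.29 SE, adjusted p = 0.0467). The median of that list was -0.38 in tumours. The drug receptors PXR (Nr1i2) and CAR (Nr1i3) had -0.66 ± 0.19 SE (adjusted p = 0.0752) and -1.70 ± 0.64 SE (adjusted p = 0.169), and Ahr had 0.05 ± 0.35 SE (adjusted p = 0.980). Of 3 tested Ah receptor targets and of 12 tested P450 genes of other families edgeR called 0 in tumours, with 1 and 7 at an unadjusted p under 0.05 and medians of -0.21 and -1.04. DESeq2 called 1 and 3 of them, and limma-voom 0 and 1.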

How the data were processed

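RNA from 14 livers and liver tumours was sequenced after library construction with the TruSeq v2 kit, per the labels' protocols; the kit does not mark strand, so a gene and an antisense partner cannot be told apart. The authors deposited a table of estimated counts per RefSeq transcript row. Per the submitters' processing notes, Salmon 0.3.1, edgeR 3.14.0 and the build mm9 were used, with settings and transcript set not given in the sources used here. Of 35230 rows, 26081 were matched to RefSeq symbols (GRCm38.p6) and 144 to GENCODE M21, and 9005 stayed unmatched, with 3.52% to 12.1% of a library's counts. Rows were summed per symbol and rounded to whole numbers, giving 30436 features. A column without values was not used.

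Tests used edgeR 4.0.16 in R 4.3.3 (TMM scaling, filterByExpr, robust quasi-likelihood, all 14 samples in 1 fit), with Benjamini-Hochberg adjustment over 12300 features and a call at adjusted p under 0.05. Effects in Grow and in Regress tumours were averaged for tumours as a whole, TMZ was a term beside the group, and SAHA was fitted with 4 groups. Library totals of 4707063 to 13394301 counts set the precision. The alternatives, among them DESeq2 1.42.0 and limma-voom (limma 3.58.1), are given in the closing section. The fits were tested on simulated data. The rule for named members took those called by edgeR, the highest of each subfamily, the markers Cyp2e1, Cyp1a2, Cyp2b13 and Cyp4a14, and the 6 largest rises and falls per group comparison among members with a mean of at least 1 CPM; other members were named after their values were seen. The members, lists and tests were chosen with earlier results of these data known.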

Additional observations from a re-analysis of the deposited data

Results flagged for a closer look

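In 10 of 108 groups of named-member values 1 library lay far from the rest of its group by Dixon's criterion. Its nominal rate of 1 in 20 holds for independent, normally distributed values. These are CPM values of related genes named partly for their fold changes, so that rate is no benchmark here. Among normal livers, Normal 2 stood apart for Cyp2c40 (512 CPM, others 0.747 to 2.91) and Cyp3a41a (74.5 CPM, others 0 to 1.02). Among Regress tumours, Regress 1 stood apart for Cyp2c37 (243 CPM, others 5.14 to 33.9), Cyp4a12a (137 CPM, others 3.36 to 14.7) and Cyp4a12b (5.71 CPM, others 0 to 0.773), and Regress 2 for Cyp3a57 (3.95 CPM, others 0.197 to 0.515). Among Grow tumours, Grow 6 was high for Cyp2b13 (82.3 CPM, others 17.7 to 41.3) and Cyp4a31 (4.61 CPM, others 1.14 to 2.15), and Grow 1 was high for Cyp2s1 (2.49 CPM, others 0 to 0.590) and low for Cyp3a59 (4.54 CPM, others 9.91 to 12.2).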

How the results depend on the processing

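Counts of calls moved with most settings; in each triple the values are for tumours, Grow and Regress against normal liver. DESeq2 called 1055, 1014 and 712 features with 12, 16 and 5 members, and limma-voom 127, 93 and 0 features with 1, 1 and 0 members. Removing the trend with transcript length gave 657, 547 and 155 features with 9, 9 and 1 members. Without the count filter there were 214, 165 and 2 features with 2, 2 and 0 members, Cyp2c69 taking the place of Cyp4f16 in tumours. With RLE factors 35 features were called in Regress tumours. With Grow 3 and Grow 4 summed, 113 features were called in Grow and 0 in Regress tumours, with 1 member in tumours and 1 in Grow tumours. Without Normal 4 and Regress 2 there were 0, 18 and 0 features and 0 members in each. Settings chosen after seeing the data were leaving out Normal 2 and Regress 1, with 628 features in tumours and 423 in Regress and 9, 7 and 6 members, and leaving out Grow 3 and Grow 4, with 570, 474 and 126 features and 10, 5 and 1 members. Between Regress and Grow, DESeq2 called 31 features. For TMZ, DESeq2 called 464 features and 14 members, limma-voom 2 and 1, the length setting 79 and 2, and both the unfiltered fit and the fit without Normal 2 and Regress 1 called 1 feature. For SAHA, DESeq2 called 52 features and 12 members. The cause was not tested.

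With the replicate number as a block edgeR called 0, 0 and 0 features and 0 members, with 1312, 1076 and 1098 features at an unadjusted p under 0.05. Under the block Cyp2b13 had 6.64 in tumours (adjusted p = 0.208) and 7.56 in Grow tumours (adjusted p = 0.243), Cyp4f16 1.55 in tumours (adjusted p = 0.281), and Cyp2j9 and Cyp4a31 -1.94 and 3.42 in Grow tumours (adjusted p = 0.343 and 0.257). The code shared by Normal 4 and Regress 2 joins samples of different numbers. Over 12 same-numbered pairs the deviations from the group means correlated at -0.522 to 0.197, and 0 of 12 samples correlated best with their own number. Such correlations between liver and tumour cannot show or exclude a shared animal.

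Leaving out each library in turn gave 0 to 991, 4 to 651 and 0 to 667 features and 0 to 11, 0 to 11 and 0 to 6 members for the triple, 0 to 1249 features and 0 to 3 members between Regress and Grow, 0 to 737 and 0 to 10 for TMZ, and 0 for SAHA. Some log2 fold changes turned in sign. Over the single libraries left out, those in tumours ran from -0.73 to 1.08 for Cyp4a14, from -5.17 to 1.51 for Cyp2c40 and from -4.30 to 1.81 for Cyp3a41a; Cyp2c40 ran from -4.35 to 2.83 in Grow and from -6.40 to 0.19 in Regress tumours; and between Regress and Grow Cyp2g1 ran from -0.68 to 1.93 and Cyp2r1 from -0.24 to 1.20. Without Normal 2 and Regress 1, Cyp4a14, Cyp2c40 and Cyp3a41a had 1.17, 1.33 and 1.72 in tumours, Cyp2c40 had 2.83 in Grow tumours and Cyp2r1 -0.24 between Regress and Grow. The positive ends for Cyp4a14, Cyp2c40 and Cyp3a41a are the fits without Normal 2, and the negative ends for Cyp2g1 and Cyp2r1 those without Regress 1; without Grow 3 and Grow 4 Cyp4a12b had 0.63. Of the values of named members under all settings, 1061 kept their direction and their side of the threshold, 58 passed it newly, 59 no longer passed and 13 turned. Members with few counts, such as Cyp2b13, Cyp3a57 and Cyp4a31 in normal liver, have fold changes that depth limits.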
